A study of Mus musculus with 6 samples.

Results

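Cxcl1, Cxcl2, Cxcl3 and Cxcl5, which encode chemokines that attract neutrophils, and Cxcr2, which encodes their shared receptor, were followed through the first days of skin wound healing in the mouse. These 5 genes were taken by name from the 19938 genes measured, and each was read from the only probe set that carries its symbol alone (10523151 for Cxcl1, 10523156 for Cxcl2, 10523138 for Cxcl3, 10523120 for Cxcl5 and 10347291 for Cxcr2). The donors were BALB/c males of 5 to 6 weeks, from an inbred strain with white fur. The 3 groups were intact skin, day 1 wounds and day 4 wounds, each with 2 arrays. Each wounded mouse received 2 full-thickness punch wounds of 4 mm on the shaved back, which left the fascia in place, and the wound with its surrounding skin was taken with a punch of 8 mm. Intact skin was taken with the same punch and serves as the control of both time points. Replicates are labelled biological, without word on whether RNA of several animals was pooled, so p-values measure the spread between these samples.

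Neutrophils are the first leukocytes to enter a wound in large numbers. They follow gradients of CXC chemokines with a glutamate-leucine-arginine motif, which bind the G protein-coupled receptor CXCR2. The ligands are made by keratinocytes, fibroblasts, endothelium and myeloid cells after interleukin-1, tumour necrosis factor or Toll-like receptor signals, largely through NF-kB, whereas Cxcr2 is transcribed mainly by neutrophils themselves.

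Values are log2 intensities, so that a difference of 1 is a doubling. Medians lay between 6.89 and 6.93 and lower quartiles between 5.29 and 5.37 on the 6 arrays. With 2 arrays per group, their number limits the precision of all estimates. The 10 skin markers, among them the epidermal keratins Krt1, Krt5, Krt10 and Krt14 and the dermal collagen Col1a1, lay between 10.58 and 12.83 on all arrays. A gene was called when its adjusted p from limma, corrected by Benjamini-Hochberg over all genes, was below 0.05. Of the 10 skin markers, 4 were called higher than in intact skin on day 1 and 4 on day 4. Their median log2 changes were 0.30 and 0.40, and of all genes 14.7% and 14.8% were called higher.

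Setting day 1 wounds against intact skin shows which of these genes were raised early after injury. All 5 were higher on day 1, where 14.7% of all genes tested were called higher. For all 5, both wound arrays lay above both intact arrays, which held for 29.0% of all genes. Cxcl2, also known as macrophage inflammatory protein 2, stood at 4.85 and 5.21 in intact skin and at 11.55 and 11.92 in day 1 wounds. Both wound arrays lay 6.34 or more above both intact arrays. The difference was 6.70 (SE 0.16, 95% interval 6.31 to 7.10, 104-fold, limma adjusted p = 1.58e-05). Cxcl3, a close relative of Cxcl2 with the same receptor, stood at 4.87 and 4.64 in intact skin and at 9.30 and 10.02 on day 1. It rose by 4.90 (SE 0.23, 30-fold, limma adjusted p = 6.99e-05), with no overlap between the groups. In whole biopsies, more cells of a type and more RNA per cell cannot be told apart.

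Cxcl5, a ligand known from epithelial cells, stood at 4.98 and 4.94 in intact skin and at 9.04 and 9.60 on day 1. Its rise was 4.36 (SE 0.27, 95% interval 3.71 to 5.01, 20.5-fold, limma adjusted p = 1.69e-04). Cxcl1, the keratinocyte-derived chemokine KC, was the ligand with the smallest change. It stood at 7.79 and 7.30 in intact skin and at 9.27 and 9.25 on day 1, so the 2 wound arrays were nearly equal and both lay above the intact ones. Its rise was 1.72 (SE 0.16, 95% interval 1.32 to 2.11, 3.28-fold, limma adjusted p = 7.33e-04), rank 411 of all genes. The 95% interval of Cxcl1 did not reach those of the other ligands, and the difference between the genes was not tested.

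Intact levels of Cxcl2, Cxcl3 and Cxcl5 lay under the lower quartile of their arrays, where signal was not tested against background. Cxcl1 lay above that quartile on every array. With the values of the genes raised to each array's lower quartile, the day 1 rises were 83.3-fold for Cxcl2, 19.8-fold for Cxcl3 and 15.6-fold for Cxcl5, and those of Cxcl1 and Cxcr2 were as before. The order of the 4 ligands by rise was the same. The ligand genes are related in sequence, and how far their probe sets share signal was not tested.

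**Figure D1:**
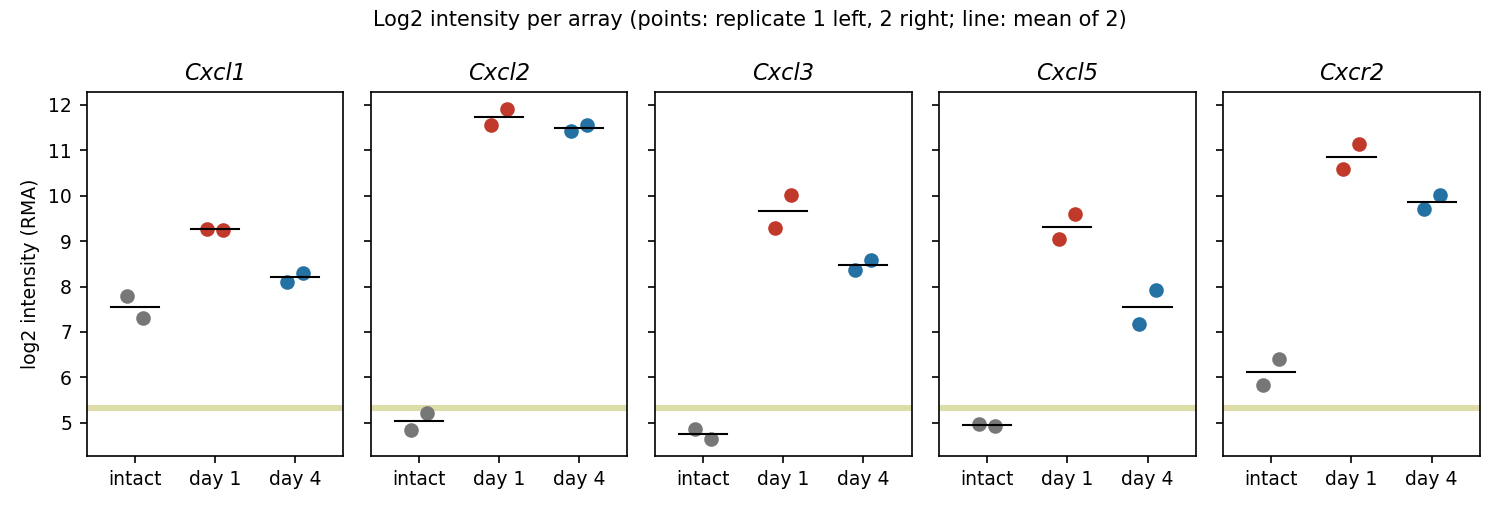
Log2 intensity (vertical axis) of each gene on each of the 6 arrays, in intact skin (grey), day 1 wounds (red) and day 4 wounds (blue). Points are arrays, black lines the mean of 2 arrays, and the shaded band the arrays' lower quartiles of 5.29 to 5.37. Intact arrays of Cxcl2, Cxcl3 and Cxcl5 lie below the band, and Cxcl2 is the gene whose day 1 and day 4 points overlap. Heights of different genes are not comparable, since each comes from its own probe set.

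The receptor transcript rose in the same samples. Cxcr2 stood at 5.83 and 6.40 in intact skin and at 10.58 and 11.14 in day 1 wounds. Both wound arrays lay 4.18 or more above both intact arrays, and the intact values lay above the lower quartile. The rise was 4.74 (SE 0.25, 95% interval 4.14 to 5.35, 26.8-fold, limma adjusted p = 9.94e-05), rank 21 of all genes. All 5 calls of day 1 held with each array left out in turn, with a highest limma adjusted p of 0.00947, for Cxcl1.

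Because 4 ligands from neighbouring genes rose together, their promoters were read from RefSeq, mouse build GRCm38.p6. Promoters of 4 of the 5 genes were matched (Cxcl1, Cxcl2, Cxcl3 and Cxcr2). The stretches below run 5′ to 3′ from base −120 to base −1 before the annotated start of transcription, on the + strand in every case, and are shown because the 3 ligand promoters hold the same 11-base sequence. Capitals mark GGGAATTTCCC, which contains a form of the NF-kB site, and TATAAA, the core of the TATA box. Cxcl1 is at chr5:90891125-90891244, Cxcl2 at chr5:90903779-90903898, Cxcl3 at chr5:90785981-90786100 and Cxcr2 at chr1:74153874-74153993.
Cxcl1: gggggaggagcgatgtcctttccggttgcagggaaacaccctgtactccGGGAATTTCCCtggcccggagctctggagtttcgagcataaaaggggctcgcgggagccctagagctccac
Cxcl2: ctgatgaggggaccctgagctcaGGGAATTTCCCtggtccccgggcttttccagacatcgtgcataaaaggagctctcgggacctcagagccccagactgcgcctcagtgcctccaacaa
Cxcl3: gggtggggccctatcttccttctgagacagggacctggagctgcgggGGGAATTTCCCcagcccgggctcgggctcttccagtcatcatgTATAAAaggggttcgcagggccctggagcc
Cxcr2: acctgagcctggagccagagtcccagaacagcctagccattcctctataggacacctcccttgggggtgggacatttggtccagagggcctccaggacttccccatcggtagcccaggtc

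GGGAATTTCCC is the longest stretch that the 120 bases of the 3 ligand promoters share. It began at base −71 in Cxcl1, −97 in Cxcl2 and −73 in Cxcl3. Of 32851 promoter windows of 300 bases in the RefSeq table, 14 held it on either strand, or 0.0426%. It overlaps matches to the NF-kB consensus on both strands, and 8.46% of the windows held that consensus. Of the 14 genes with the 11-base stretch 10 were measured. Besides the 3 ligands, from which the stretch was taken, Il16, a leukocyte cytokine gene, was called higher on day 1 (1.61-fold, limma adjusted p = 0.0174). The hair keratin-associated gene Krtap5-3 was lower (−1.12, limma adjusted p = 0.00914), and 5 were not called. Among all genes, 14.7% were called higher and 14.6% lower on day 1. With so few genes, the calls outside the ligands cannot be told apart from these shares. This stretch was chosen after the values of the ligands were seen. TATAAA, searched on both strands, was matched in Cxcl3 at base −30, and 13.6% of windows held it on either strand. Only exact matches were counted. The stretches of Cxcl1 and Cxcl2 hold cataaaagg, and that of Cxcl3 holds TATAAAagg. The stretch, the consensus and TATAAA had no match in the 300 bases of Cxcr2. In a global alignment of the 120 bases, Cxcl1 and Cxcl3 had 84 identical bases, Cxcl1 and Cxcl2 74, and Cxcl2 and Cxcl3 73, against 56 to 65 between these ligands and Cxcr2. A match describes the sequence and is not a measurement of factor binding.

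Day 4 wounds were set against intact skin to see whether the genes were still raised. All 5 were higher, where 14.8% of all genes were called higher. Cxcl2 stood at 11.42 and 11.56 on day 4, 6.46 above intact skin (SE 0.16, 95% interval 6.06 to 6.86, 88-fold, limma adjusted p = 2.33e-05). Raised to the lower quartile in intact skin, the fold was 70.3. Cxcl3 stood at 8.37 and 8.58, a rise of 3.72 (SE 0.23, 13.2-fold, limma adjusted p = 2.89e-04), or 8.69-fold with values raised to the lower quartile. Cxcl5 stood at 7.18 and 7.92, a rise of 2.59 (SE 0.27, 6.02-fold, limma adjusted p = 0.00139), or 4.58-fold with values raised. Day 4 arrays of these 3 ligands lay 2.20 or more above the intact arrays.

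Cxcr2 stood at 9.71 and 10.02 on day 4, 3.75 above intact skin (SE 0.25, 13.5-fold, limma adjusted p = 3.48e-04). Cxcl1 stood at 8.10 and 8.29 and was 0.65 higher than in intact skin (SE 0.16, 95% interval 0.26 to 1.04, 1.57-fold, limma adjusted p = 0.0288). The lower day 4 array lay 0.31 above the higher intact array, a gap smaller than the 0.49 between the 2 intact arrays. The Cxcl1 call on day 4 was lost without intact skin replicate 2 (log2 change 0.41, limma adjusted p = 0.0835), without either day 1 array (0.0562 each), and without day 4 wound replicate 1 (0.0584) or replicate 2 (0.137). Leaving out either day 1 array gives the same fit, that on intact skin and day 4 wounds alone. The other 4 genes kept their day 4 calls without any 1 array.

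**Figure D2:**
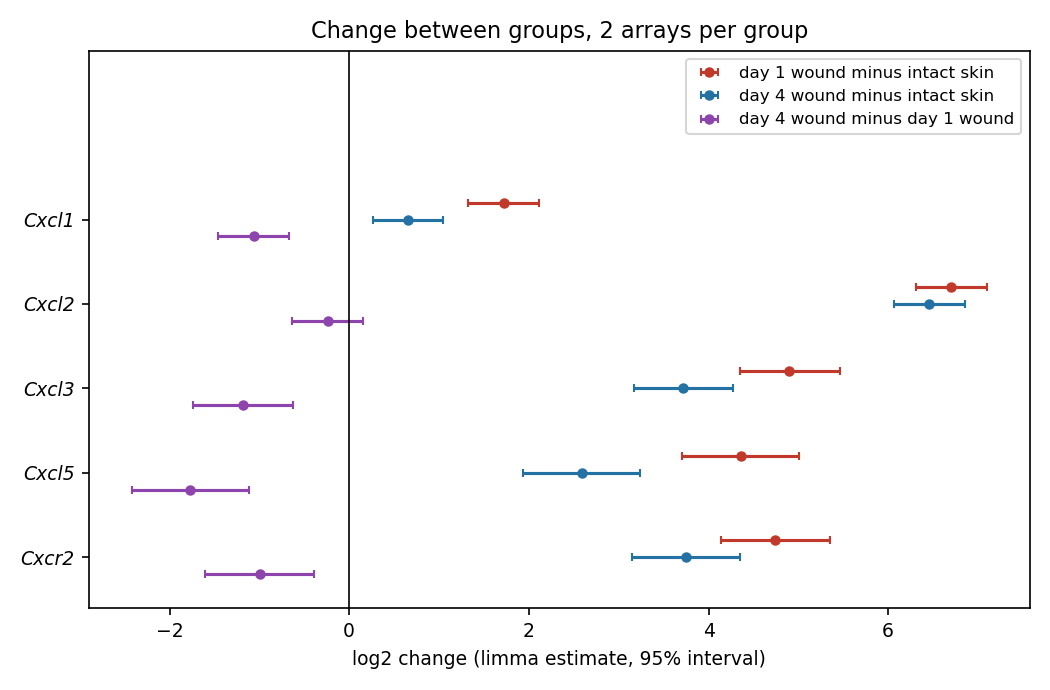
Log2 change of each gene between groups (horizontal axis) with 95% intervals from the limma fit, for day 1 against intact skin (red), day 4 against intact skin (blue) and day 4 against day 1 wounds (purple). For Cxcl2 the purple interval, −0.64 to 0.15, spans 0, and for the other 4 genes it lies below 0.

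The direct comparison of the wound days shows how far the transcripts had come down. All 5 estimates were negative, and Cxcl5 and Cxcl1 passed the threshold, where 1.14% of all genes were called lower and 1.09% higher. For 4 of the 5 genes both day 4 arrays lay below both day 1 arrays, which held for 22.0% of all genes. Cxcl5 fell by 1.77 (SE 0.27, 95% interval −2.42 to −1.12, 3.41-fold, limma adjusted p = 0.0368), and its day 4 level was 29.3% of its day 1 level on the linear scale. Only 19 genes had a larger fall. Cxcl1 fell by 1.06 (SE 0.16, 95% interval −1.46 to −0.67, 2.09-fold, limma adjusted p = 0.0369), to 47.8% of its day 1 level. Both calls were lost with most arrays left out: Cxcl1 without any 1 of the 6 (limma adjusted p from 0.0635 to 0.189), and Cxcl5 without any 1 array except day 4 wound replicate 2 (from 0.0751 to 0.184). Both signs stayed negative throughout. A lone intact array adds no spread to the fit, so leaving out either intact array gives the same fit, that on the wound groups alone. The log2 changes of this comparison cannot move in it.

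Cxcl3 and Cxcr2 had day 4 arrays below both day 1 arrays without passing the threshold. Cxcl3 was at −1.18 (SE 0.23, 95% interval −1.74 to −0.63, limma adjusted p = 0.0608) and Cxcr2 at −0.99 (SE 0.25, 95% interval −1.60 to −0.39, limma adjusted p = 0.104). Cxcl3 passed without day 1 wound replicate 1 (log2 change −1.54, limma adjusted p = 0.0449). Cxcl2 was at −0.24 (SE 0.16, 95% interval −0.64 to 0.15, limma adjusted p = 0.481), and its groups overlapped, with an array at 11.56 on day 4 and an array at 11.55 on day 1. Its day 4 level was 84.4% of the day 1 level, and the interval allows a fall of up to 0.64. Whether Cxcl2 differs from the other genes in its course was not tested.

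In order of level, intact skin was lowest, day 4 was intermediate and day 1 was highest for all 5 means. Neighbours in that order that overlapped or did not pass were day 4 and day 1 for Cxcl2, Cxcl3 and Cxcr2. On the log2 scale, day 4 kept 96.3% of the day 1 rise for Cxcl2, 79.0% for Cxcr2, 75.8% for Cxcl3, 59.4% for Cxcl5 and 37.9% for Cxcl1. The order depends on the scale. As a share of the day 1 level on the linear scale, day 4 stood at 84.4% for Cxcl2, 50.2% for Cxcr2, 47.8% for Cxcl1, 44.0% for Cxcl3 and 29.3% for Cxcl5. The comparisons with intact skin share the same intact arrays.

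**Figure D3:**
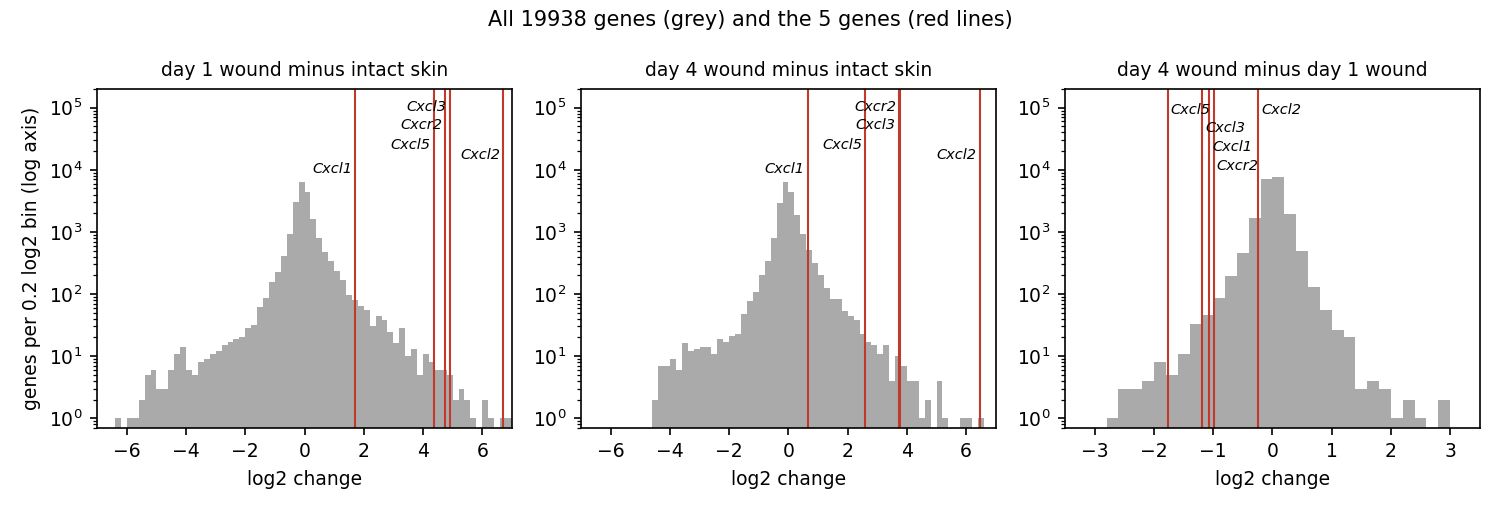
Histograms of the log2 change of all 19938 genes (horizontal axis) in the 3 comparisons, with the number of genes per bin of 0.2 on a log axis, and red lines at the 5 genes. Cxcl2 lies at 6.70 and 6.46 at the far right of the comparisons with intact skin, and Cxcl5 at −1.77 in the left tail of day 4 against day 1.

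Replicates differed more for most of these genes than for a typical gene. The median difference between the 2 arrays of a group over all genes was 0.09 in intact skin, 0.1 on day 1 and 0.11 on day 4. On day 1 the arrays differed by 0.72 for Cxcl3, 0.56 for Cxcl5 and Cxcr2, 0.37 for Cxcl2 and 0.02 for Cxcl1. The second replicate was the higher for 4 of the 5 genes on day 1 and for all 5 on day 4. The summed intensity of 18 neutrophil markers was also higher in replicate 2, at a log2 of 14.66 against 14.25 on day 1 and 13.63 against 13.30 on day 4. Other lists were also higher in replicate 2 on day 1, with fibroblast markers at 14.59 against 14.24, mast cell markers at 12.14 against 11.78, monocyte and macrophage markers at 14.25 against 14.01 and endothelial markers at 12.13 against 12.02. Keratinocyte markers were at 15.20 against 15.27. The part of cell content in the replicate differences was not tested.

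The 4 ligand genes lie on chromosome 5 in the order Cxcl5, Ppbp, Pf4, Cxcl3, Cxcl15, Cxcl1 and Cxcl2. Of these 7 chemokine genes 6, the 4 ligands among them, were called higher on day 1, against 14.7% of all genes. Ppbp, the platelet basic protein gene whose processed product also binds CXCR2, stood at 5.92 and 6.17 in intact skin, at 10.31 and 11.35 on day 1 and at 9.12 and 10.14 on day 4. It rose by 4.78 on day 1 (27.6-fold, limma adjusted p = 5.65e-04) and by 3.58 on day 4 (12-fold, limma adjusted p = 0.00211). Pf4, platelet factor 4, rose 5.90-fold on day 1 and 5.19-fold on day 4. Of 4 platelet markers measured, whose summed log2 intensity was at least 8.98 on both intact skin arrays, 8.78 and 8.68 on day 1 and 8.79 and 8.68 on day 4, Gp5 (−0.54) and Treml1 (−0.44) fell on day 1, and Gp9 (−0.06) and Itga2b (−0.01) were not called. Cxcl15, known from lung, lay between 4.00 and 4.42 on all arrays, under the lower quartile, and was not called (0.21, limma adjusted p = 0.230 on day 1). Outside the cluster, the nearest genes were Rassf6, lower by 1.18 on day 1, and Mthfd2l, at −0.29 and not called. Epgn, an epidermal growth factor ligand beyond Mthfd2l, was higher by 1.63. These neighbours were looked up after the values of the ligands were seen.

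**Figure D4:**
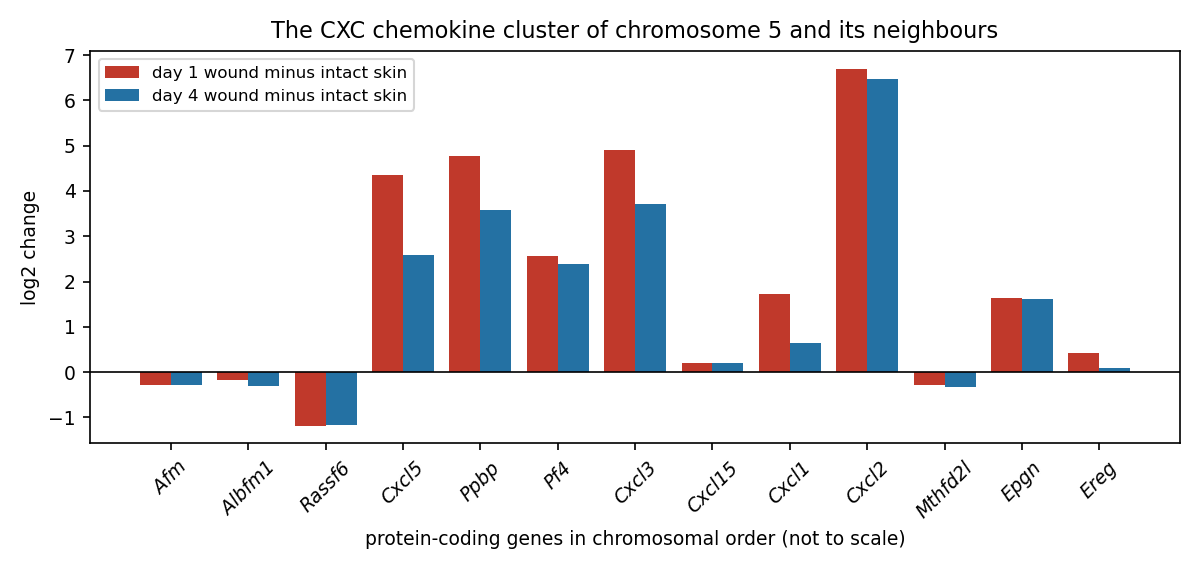
Log2 change from intact skin (vertical axis) of 13 protein-coding genes in chromosomal order, on day 1 (red bars) and day 4 (blue bars), with gene distances not to scale. Between Rassf6 (−1.18 on day 1) and Mthfd2l (−0.29), every gene but Cxcl15 has a day 1 change of 1.72 or more.

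Of the 11 other CXC chemokines, 7 were called higher and 1 lower on day 1, against 14.7% and 14.6% of all genes. Their median was 1.11, against −0.04 over all genes. Of the 11, 6 were higher and 2 lower on day 4, against 14.8% and 12.1% of all genes. Cxcl10, a ligand of CXCR3 on T cells, rose 13.7-fold on day 1 and stood 4.77-fold above intact skin on day 4. Between the days it was at −1.52 (limma adjusted p = 0.0531). Cxcl9, which binds the same receptor, was 2.06-fold higher on day 1 and 3.18-fold on day 4. Cxcl16, a membrane-bound ligand of CXCR6, was 2.88-fold and 2.69-fold higher. Cxcl13, the B cell attractant, was 2.16-fold higher on day 1. Against the rest, the homeostatic chemokine Cxcl12 fell by 0.26 on day 1 and by 0.30 on day 4, and Cxcl14, a chemokine of resting epidermis, fell by 0.96 on day 4 and was at −0.14 on day 1 (limma adjusted p = 0.597). Between the wound days limma called 0 of the 11, where 1.09% of all genes were higher and 1.14% lower. An unadjusted limma p below 0.05 was found for 6 of the 11, and for 3765 of all 19938 genes.

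Of 10 other CXC and atypical chemokine receptors, 6 were higher on day 1 and 3 on day 4, against 14.7% and 14.8% of all genes called higher. Their medians were 0.61 and 0.43, and all 10 estimates were above 0 on both days. Cxcr1, the closest relative of Cxcr2, stood at 5.84 and 5.54 in intact skin, 6.34 and 7.06 on day 1 and 6.20 and 6.18 on day 4. Its day 1 rise was 1.01 (2.01-fold, limma adjusted p = 0.0186), and on day 4 it was at 0.50 (limma adjusted p = 0.157). Ackr1, the atypical receptor of venular endothelium and red cells that binds many inflammatory chemokines, stood at 7.89 and 7.86, then 8.70 and 9.04, then 8.03 and 8.09. It was 1.99-fold higher on day 1 (limma adjusted p = 0.00166) and fell by 0.81 between the days (limma adjusted p = 0.0361), and day 4 was 0.19 above intact skin without a call. Ccrl2, a receptor-like protein of activated leukocytes that presents chemerin, rose 22.6-fold on day 1 and was 17.1-fold higher on day 4. Cxcr4, the receptor of Cxcl12, was 1.65-fold higher on day 4 and at 0.28 on day 1 (limma adjusted p = 0.151). Cxcr6 was 1.61-fold and 1.99-fold higher, and the scavenger Ackr3 was 1.85-fold higher on day 1.

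Of 18 genes that carry or limit CXCR2 signals in neutrophils, 12 were higher on day 1 and 14 on day 4. Among all genes 14.7% and 14.8% were called higher. The medians of the 18 were 0.77 and 0.75, against −0.04 and −0.03 over all genes. The haematopoietic exchange factor Vav1 rose 6.41-fold on day 1 and Rac2, the GTPase of neutrophil movement, 4.58-fold. Dock2, an activator of Rac, rose 4.08-fold and the Src family kinase Fgr 3.92-fold. On day 4 Vav1 was 4.74-fold, Dock2 3.73-fold, Rac2 2.68-fold and the arrestin Arrb2, which uncouples receptors, 1.97-fold higher. Rac2 was the single gene of this list called between the days, lower by 0.78 (limma adjusted p = 0.0427, with 1.14% of all genes called lower), and Pik3r5, a regulatory subunit of the phosphoinositide kinase downstream of G proteins, was at −1.02 (limma adjusted p = 0.0509). These genes are shared by many leukocytes.

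Of 26 inducers and regulators of the ligand transcripts, 19 were higher on day 1 and 16 on day 4. The medians were 0.91 and 0.58, and of all genes 14.7% and 14.8% were called higher. Il1b, which encodes the cytokine that induces these chemokines, stood at 6.03 and 6.37 in intact skin, 11.58 and 11.77 on day 1 and 11.26 and 11.49 on day 4. Il1a, its alarmin relative, rose 3.43-fold on day 1. Tnf, the tumour necrosis factor gene, was 4.52-fold higher on day 1 and 4.89-fold higher on day 4. Tlr2, a receptor for bacterial lipoproteins, rose 4.71-fold and the NF-kB feedback gene Tnfaip3 3.73-fold on day 1, and day 4 levels were 3.22-fold and 2.32-fold above intact skin. Of this list 6 genes fell between the days, where 1.14% of all genes were called lower, among them the interleukin-17 receptor chain Il17ra (by 0.91, limma adjusted p = 0.0156) and Tnfaip3 (by 0.68, limma adjusted p = 0.0228). The interleukin-17 genes Il17a and Il17f, whose products also induce these ligands, were at −0.22 and −0.18 on day 1 without a call. The transcription factor gene Egr1 fell by 0.42 on day 4 as the single member called lower than intact skin. On day 4, 12.1% of all genes were called lower.

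Of 8 genes of other neutrophil attractant receptors and leukotriene enzymes, 7 were higher on day 1 and 8 on day 4. The medians were 2.52 and 2.17, and of all genes 14.7% and 14.8% were called higher. Ccr1, a receptor of CC chemokines on neutrophils and monocytes, rose 25.6-fold and was 13-fold higher on day 4. Its intact arrays, at 4.53 and 5.10, lay under the lower quartile, so these folds carry the limit given for Cxcl2. The complement receptor C5ar1 rose 8.54-fold, Alox5ap, which presents arachidonate to 5-lipoxygenase, 6.84-fold, and Ptafr, the receptor of platelet-activating factor, 4.84-fold on day 1. The leukotriene hydrolase Lta4h was at −0.01 on day 1 and 1.21-fold higher on day 4. Of 8 genes of heparan sulfate and endothelial adhesion, which display chemokines and arrest leukocytes, 6 were higher and 1 lower on day 1. The median was 0.89, and of all genes 14.7% were called higher and 14.6% lower. Icam1, the integrin ligand, rose 2.80-fold, Sele, E-selectin, 1.88-fold and the heparanase Hpse 2.30-fold. Between the days 3 of the 8 were called lower and 2 higher, where 1.14% and 1.09% of all genes were. The syndecan Sdc4 fell by 0.70, Icam1 by 0.64 and Sele by 0.53, whereas the adhesion molecule Vcam1 and Hpse rose by 0.63 and 0.62. Sdc1, a syndecan of keratinocytes, fell by 0.83 on day 1 and by 0.57 on day 4.

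Markers of several cell types were also raised in the wounds. Of 18 neutrophil markers, 12 were higher on day 1 and 10 on day 4, with medians of 2.79 and 1.27. Among all genes 14.7% and 14.8% were called higher. The summed log2 intensity of the list was 10.95 and 11.02 in intact skin, 14.25 and 14.66 on day 1 and 13.30 and 13.63 on day 4. The neutrophil surface gene Ly6g stood at 4.75 and 4.79 in intact skin, under the lower quartile, at 8.60 and 9.07 on day 1 and at 6.36 and 6.26 on day 4. It fell by 2.52 between the days (limma adjusted p = 0.00485), as did the collagenase Mmp8, by 2.21 (limma adjusted p = 0.00485). In contrast, S100a8 and S100a9, the calprotectin genes that activated epidermis also expresses, were at −0.48 and −0.47 between the days without a call. Genes of early granules, Elane and Prtn3, the antimicrobial Camp and the regulator Cebpe were at −0.16 to −0.08 on day 1 without a call. The other 2 markers not called were Mpo, also an early granule gene, at 0.43, and Ltf, the lactoferrin gene, at 0.26. The part of neutrophil number in the levels of Cxcr2 and the ligands was not tested.

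The counts that follow stand beside 14.7% of all genes called higher and 14.6% lower on day 1. On day 4 these shares were 14.8% and 12.1%. All 12 monocyte and macrophage markers were higher at both times, with medians of 1.98 and 2.14. Their summed log2 intensity was 11.87 and 12.28 in intact skin, 14.01 and 14.25 on day 1 and 14.07 and 14.15 on day 4. Of 11 markers of basal and activated keratinocytes, 8 were higher on each day, with medians of 0.48 and 0.60 and sums of 14.59 and 14.68, then 15.27 and 15.20, then 15.35 and 15.32. Of 10 endothelial markers 7 were higher on day 1 and 9 on day 4, with medians of 0.93 and 0.65 and sums of 11.23 and 11.35, then 12.02 and 12.13, then 11.80 and 12.06. Of 10 fibroblast markers 5 were higher and 1 lower on day 1, and 7 and 1 on day 4, with medians of 0.40 and 0.65 and sums of 13.98 and 14.07, then 14.24 and 14.59, then 14.66 and 14.70. Of 10 mast cell markers 6 were higher and 1 lower on day 1, and 5 and 1 on day 4, with medians of 0.53 and 0.34 and sums of 10.32 and 10.39, then 11.78 and 12.14, then 11.34 and 11.67. Single mast cell markers ran from −1.05 to 4.18 on day 1, and the highest, named after its value was seen, was the histamine-forming enzyme gene Hdc. The part of these cell types in the ligand levels was not tested.

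**Figure D5:**
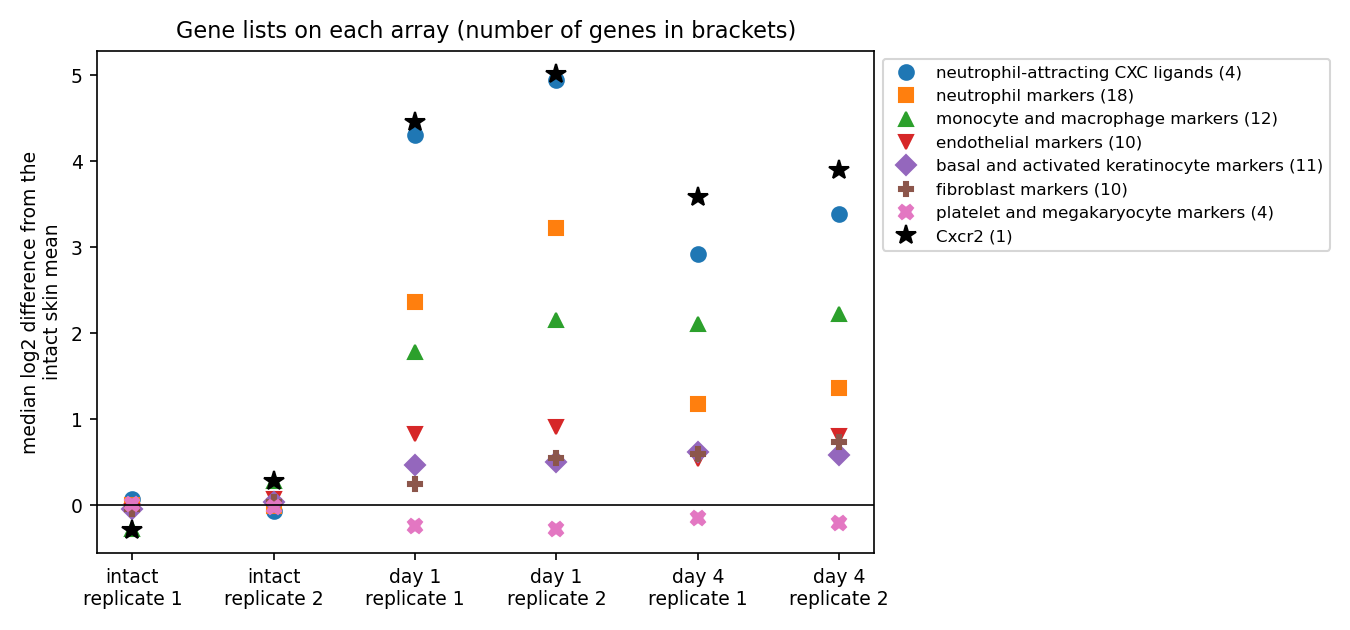
Median log2 difference from the intact skin mean (vertical axis) of the 4 ligands, of 6 marker lists and of Cxcr2 on each of the 6 arrays. On the day 1 and day 4 arrays, the neutrophil markers are at 2.36, 3.22, 1.18 and 1.36, the monocyte and macrophage markers at 1.78, 2.15, 2.11 and 2.22, and the platelet markers at −0.27 to −0.15.

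To place each gene, the 3 named genes with the most similar course were found by the root mean square difference over the 6 arrays, with each gene set to its own intact mean. This is a description over 3 groups, and no p belongs to it. Cxcr2 was nearest to Cd14, the lipopolysaccharide co-receptor of myeloid cells, and to Ccr1, with a difference of 0.11 each, followed by Slfn1 (0.24). Cxcl3 was nearest to the non-coding transcript Mirt2 (0.17), Cd14 (0.23) and Cxcr2 (0.26). Cxcl2 was nearest to Ccl3, a CC chemokine of macrophages and neutrophils (0.27), which stood at 12.44 and 12.56 on day 1 and 12.22 and 12.43 on day 4. After Clec4e, a lectin receptor of myeloid cells (0.34), the third gene, Acod1, was already 1.03 away. Cxcl5 was nearest to Csf3r, the receptor of granulocyte colony-stimulating factor (0.33), Ankrd1, a stress-induced gene of muscle and other tissues (0.33), and Trim30d (0.39). Cxcl1 was nearest to Odc1, the first enzyme of polyamine synthesis (0.16), Hk3, a hexokinase of myeloid cells (0.17), and Myd88, the adaptor of interleukin-1 and Toll-like receptors (0.17). Myd88 rose 3.04-fold on day 1 and was 1.77-fold higher on day 4, against 3.28-fold and 1.57-fold for Cxcl1.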

How the data were processed

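Total RNA of skin biopsies, with integrity numbers of 7.7 to 9.1 per the labels, was hybridised to Affymetrix mouse gene arrays. The authors deposited log2 intensities, 1 per probe set and array, for which the submitters' processing notes name RMA. This method subtracts background, gives the probe intensities of all arrays the same distribution and then combines the probes of a set. The RMA version is not stated there. Of 35556 probe sets, 21789 carried exactly 1 gene symbol in the array annotation, 1621 carried several and 12146 were not listed. The brightest probe set over 6 arrays was kept per gene. Groups were fitted with limma 3.58.1 in R 4.3.3 (lmFit, eBayes) on all 6 arrays (residual degrees of freedom 3, prior 3.4). Two-sided p-values were corrected by Benjamini-Hochberg over 19938 genes. The code of the fit was run on simulated arrays with known changes and independent noise, which does not test the calls made here. Of 183 members of 14 context and marker lists 166 were matched. They are described by counts and medians. For each list, the genes with the smallest p were named (up to 4 against intact skin on each day, up to 2 between days), with those moving against their list. The 5 genes, the lists and tests were chosen with earlier results of these data known. Alternatives changed the normalization, variance prior, samples, filter, probe sets, replicate block and arrays left out.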

Additional observations from a re-analysis of the deposited data

How the results depend on the processing

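With 2 arrays per group and no scanner files used here, signal over background could not be assessed and small changes of dim genes cannot be resolved. The log2 changes of the 5 genes kept their direction in all 3 comparisons under every alternative. Only other normalizations, raised values and leaving out an array of a compared group could move them. The other settings leave the log2 changes as they are, since each gene has 1 probe set and the groups are of equal size. Leaving out an array of the group not compared repeats the fit on only the 2 groups compared. All 80 alternative values for day 1 against intact skin stayed past the threshold. For day 4 against intact skin 73 of 80 did so, and the 7 others were all of Cxcl1, among them the fit on only the 2 groups compared (limma adjusted p = 0.0562) and the test of every probe set (0.0565). Day 4 against day 1 was the least stable comparison. There 2 of the 5 genes were called, but 0 in the fit on only the 2 groups compared (17 of all genes called) and 0 with every probe set tested (20 called of 35556), against 444 genes in the reported fit. Leaving out 1 array gave 0 to 1 of the 5 genes and 14 to 184 of all genes. In each of these limma fits 4 of the 5 had an unadjusted p below 0.05. The cause was not tested. For day 1 against intact skin 5842 genes were called. With 1 array left out the count ran from 3149 (without intact skin replicate 1) to 5673, with 3393 without intact skin replicate 2 and 3349 without day 1 wound replicate 2. For day 4 against intact skin 5371 were called, and with 1 array left out 2246 (without intact skin replicate 1) to 4907, with 2585 without intact skin replicate 2 and 2928 without day 4 wound replicate 2. The lone array of a group was then assumed to vary like the others. Replicate numbers are shared by the groups without a stated pairing. Differences between replicates correlated at 0.685 between the wound days and at 0.014 and 0.023 with intact skin. With the replicate number as a block, 5, 5 and 3 of the 5 genes were called in the 3 comparisons, with Cxcr2 at a limma adjusted p of 0.0177 between the wound days, and 5864, 5497 and 583 of all genes. Raising values to the lower quartile was chosen after seeing the data.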
